A study of Mus musculus with 167 samples.

Results

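The leukocyte (WBC) fraction of blood from C57Bl/6 mice was compared between mice that had received whole thorax lung irradiation (WTLI) and sham irradiated mice in month 6. The members were picked out by their sample labels (strain, fraction and irradiation), which gave 16 of the 167 samples of the series, 5 from irradiated and 11 from sham mice. WTLI was a single exposure of the chest to X-rays under anesthesia, with the rest of the body shielded, at a dose that the study chose to be lethal for most C57Bl/6 mice within the observation period, so these libraries come from mice that were alive when blood was taken. Mice were young adults of both sexes at exposure. The irradiated group held 4 males and 1 female and the sham group 7 males and 4 females, and the labels also gave a letter, A (2 irradiated and 5 sham) or B (3 irradiated and 6 sham), whose meaning was not stated. The study describes a centrifugation of blood that parted plasma from the cells. It does not state how leukocytes and erythrocytes were parted, and it names no sorting step. The fraction is therefore taken as a mixture of lymphocytes, monocytes, granulocytes and whatever erythrocytes and platelets remained with them. Each library is 1 mouse, and the same mice also gave lung and erythrocyte (RBC) libraries.

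MiRNAs are short RNAs that guide Argonaute proteins to messenger RNAs, mainly through bases 2 to 8 of the mature miRNA, the seed, and lower the stability and translation of these targets. Blood cells have marked miRNA profiles. MiR-150-5p is abundant in mature lymphocytes, miR-223-3p in granulocytes and monocytes, miR-142a in all hematopoietic cells, and miR-451a, miR-486a-5p and miR-144 in the erythroid lineage. After DNA damage, p53 raises transcription of miR-34a and of the clusters that hold miR-192, miR-194 and miR-215.

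The mature sequences below are those the comparison turns on, from RefSeq (build GRCm38.p6, in which 243 of the 291 tested miRNAs had an entry under the same name), written 5′ to 3′ with the seed in capitals. The first 3 are the miR-183 cluster (miR-183, miR-96 and miR-182), which all had an unadjusted p under 0.05, and the next 2 are the neighbouring, p53-responsive miR-192 and miR-194. The miR-142a arms and miR-223-3p are miRNAs of blood cells (miR-223-3p was higher in WBC than in RBC libraries of the same mice and miR-142a-5p was not), miR-28a-3p was the lowered miRNA of smallest p, and the last 5 are miRNAs set against irradiated lung.
miR-183-5p: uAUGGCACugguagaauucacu
miR-96-5p: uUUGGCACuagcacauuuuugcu
miR-182-5p: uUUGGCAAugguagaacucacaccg
miR-192-5p: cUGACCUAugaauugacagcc
miR-194-5p: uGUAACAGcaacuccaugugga
miR-142a-5p: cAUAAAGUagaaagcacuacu
miR-142a-3p: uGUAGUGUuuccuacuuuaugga
miR-223-3p: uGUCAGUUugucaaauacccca
miR-28a-3p: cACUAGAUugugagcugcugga
miR-7a-5p: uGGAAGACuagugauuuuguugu
miR-7b-5p: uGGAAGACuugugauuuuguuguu
miR-196b-5p: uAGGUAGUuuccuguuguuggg
miR-21a-3p: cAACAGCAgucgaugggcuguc
miR-34a-5p: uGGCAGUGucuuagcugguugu

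The miR-183 cluster lies on the minus strand of chromosome 6, with mature miR-183-5p at chr6:30169711-30169732, miR-96-5p at chr6:30169506-30169528 and miR-182-5p at chr6:30165962-30165986, outside any other GENCODE gene. The seeds of miR-96-5p and miR-183-5p differ at 1 base (U2A, counted from 1 at the 5′ end with the miR-96-5p base first) and those of miR-96-5p and miR-182-5p at 1 base (C8A), so the cluster members have similar but not identical seeds. MiR-192-5p (chr19:6264857-6264877, plus strand) lies 199 bases after a copy of miR-194-5p (chr19:6264658-6264679), and the second copy of miR-194-5p lies in an intron of 2010103J01Rik on chromosome 1. MiR-142a is in an intron of its host RNA Mir142hg on chromosome 11, and miR-28a in an intron of Lpp on chromosome 16. MiR-7a-5p and miR-7b-5p share their seed, and over the length of miR-7a-5p they differ at position 10 (A10U, miR-7a-5p base first), so their reads are close to identical.

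No miRNA changed in the WBC fraction of irradiated C57Bl/6 mice by the criteria used here. Of 291 miRNAs tested, 0 passed an adjusted p under 0.05 with a fold change of at least 2.25 (limma, 0% called), and 0 passed the adjusted p alone. The lowest adjusted p was 0.473, for miR-96-5p. This fit shared its filter, normalisation and estimate of spread with 11 WBC libraries of C3H females (month 4). With C57 libraries alone, 281 miRNAs were tested, 0 were called and the lowest adjusted p was 0.852 (limma). At an unadjusted p under 0.05 there were 12 miRNAs (4.12% of those tested), 9 higher and 3 lower in irradiated mice. This split turned around to 3 higher and 5 lower without irradiated replicate 1 and to 4 higher and 5 lower in letter B alone. The same count was 14 in edgeR (11 higher, 3 lower) and 12 in DESeq2 (6 higher, 6 lower), with 0 called by either tool, and with scaling to library size alone it was 6 (5 higher, 1 lower). The 5 irradiated libraries did not separate from the 11 sham libraries for any miRNA (0 of 291, 0%). Over all miRNAs tested the median log2 change was 0.02, with 151 miRNAs above 0 and 139 below.

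The data bounded the change more closely for abundant miRNAs. For 186 of 291 miRNAs (63.9%) the 95% interval of the log2 change lay wholly within ±1.17, the log2 of the fold minimum, so that a change of the called size lay outside the interval. This held for 35 of 41 miRNAs above 1000 RPM (counts scaled to the library total), 48 of 62 between 100 and 1000 RPM, 54 of 74 between 10 and 100 RPM, and 49 of 114 below 10 RPM. The median half-width of the interval fell from 0.91 on the log2 scale below 10 RPM to 0.54 above 1000 RPM. For the other miRNAs a change of 2.25-fold was neither called nor outside the interval.

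**Figure D1:**
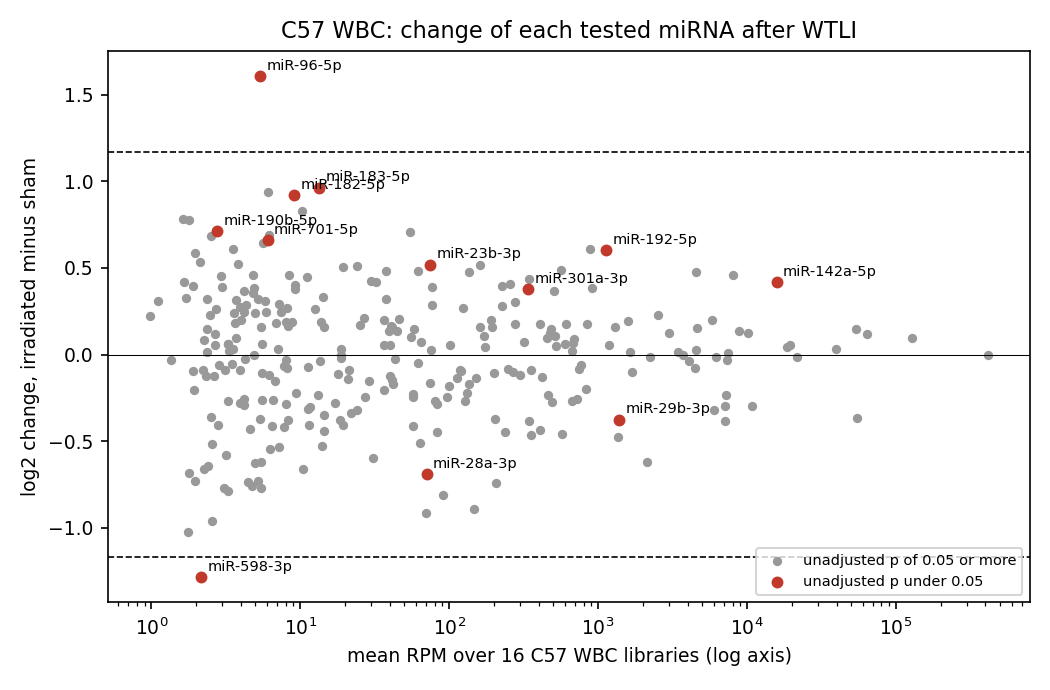
Each point is 1 of the 291 tested miRNAs, with its mean RPM over the 16 C57 WBC libraries on the x axis (log scale) and its log2 change, irradiated minus sham, on the y axis. Red points are the 12 miRNAs with an unadjusted p under 0.05, dashed lines mark a fold change of 2.25, and only miR-96-5p (1.61) and miR-598-3p (-1.29) lie outside the lines.

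Depth and the share of miR-16-5p were close between the groups, but the libraries fell apart along another line. The first principal component (46.9% of the variance of normalised log2 RPM) set 6 libraries, sham replicates 1 to 4 and irradiated replicates 1 and 2 (scores -15.5 to -7.20), apart from the other 10 (-1.84 to 12.9). All 6 are males, and they include all 5 males of letter A. With the letter as a covariate 0 miRNAs were called (lowest adjusted p 0.360). Total counts ranged from 2354921 to 5060541, and the difference in log2 total counts between irradiated and sham libraries was 0.01 (exact permutation test, two-sided, p = 0.944, adjusted over 3 tests 0.944). Irradiated libraries held 488.4 ± 27.04 miRNAs with at least 1 count (SD, n = 5) and sham libraries 493 ± 34.8 (SD, n = 11; exact permutation p = 0.800, adjusted 0.944). MiR-16-5p, an abundant blood cell miRNA of the miR-15/16 family, took 41.1% ± 4.56 of sham counts (SD, n = 11) and 42.4% ± 3.15 of irradiated counts (SD, n = 5; exact permutation p = 0.585, adjusted 0.944). It ranked first in every library, and quantile normalisation therefore gave it 1 value throughout, so that only its share could be compared. The 10 most abundant miRNAs took 83.0% ± 2.33 of the counts (SD, n = 16). After miR-16-5p they were let-7i-5p (12.8%), miR-93-5p (6.41%), miR-21a-5p (5.45%), let-7f-5p (5.398%), miR-25-3p (3.94%), let-7a-5p (2.18%), miR-451a (1.95%), miR-144-5p (1.87%) and miR-142a-5p (1.59%).

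The miR-183 cluster, best known from sensory cells and also present in lymphocytes, held 3 of the 12 miRNAs with the lowest p. These miRNAs were not all highest in WBC, since over the same 16 mice miR-96-5p averaged 5.37 RPM in WBC and 8.57 RPM in RBC libraries (higher in WBC in 4 of 16), miR-182-5p 9.14 and 9.48 RPM and miR-183-5p 13.5 and 6.78 RPM. MiR-96-5p was at 25.4, 7.90, 8.74, 3.37 and 4.18 RPM in the 5 irradiated libraries and at 1.59 to 7.64 RPM (median 2.74) in the 11 sham libraries. Every irradiated library lay above the sham median, but only 3 of 5 lay above all sham libraries in RPM, and irradiated replicate 1 stood apart from the other 4. The log2 change was 1.61 ± 0.46 (SE), with a 95% interval of 0.67 to 2.55 and an adjusted p of 0.473 in limma. It rested on few reads, since sham libraries held 4 to 33 counts.

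MiR-183-5p was at 45.5, 26.2, 13.98, 4.90 and 12.5 RPM in irradiated libraries and at 3.65 to 18.5 RPM (median 7.64) in sham libraries. MiR-182-5p was at 28.9, 13.3, 10.5, 4.29 and 11.7 RPM in irradiated libraries and at 2.43 to 11.7 RPM (median 5.97) in sham libraries. The groups overlapped for both, and irradiated replicate 1 was the highest library and irradiated replicate 4 the lowest irradiated library for all 3 cluster members. The log2 changes were 0.96 ± 0.37 (SE) for miR-183-5p and 0.92 ± 0.44 for miR-182-5p, with adjusted p of 0.819 and 0.862 in limma. Without irradiated replicate 4 the lowest adjusted p, shared by miR-96-5p and miR-183-5p, was 0.0684, and without irradiated replicate 1 every adjusted p was 0.971 or more and the log2 changes were 1.14 for miR-96-5p, 0.55 for miR-183-5p and 0.56 for miR-182-5p. The cluster members are processed from neighbouring hairpins and share libraries, so their values are not independent of each other.

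MiR-192-5p was the most abundant of the p53-responsive miRNAs measured here. It was at 1867, 1692, 1248, 1169.5 and 1244 RPM in irradiated libraries and at 700.6 to 1344 RPM (median 969.9) in sham libraries. All 5 irradiated libraries lay above the sham median and 2 above every sham library, with a log2 change of 0.60 ± 0.20 (SE, 95% interval 0.18 to 1.02) and an adjusted p of 0.497 in limma. This interval lies within the fold minimum. On the normalised log2 scale, sham males (8.91 to 9.49) lay below all sham females (9.65 to 10.09). Irradiated males were at 9.65 to 10.46, above all sham males, and the irradiated female at 10.31, above all sham females. Such separation within each sex was not counted over all miRNAs. With sex as a covariate the change was 0.70 and the adjusted p 0.128, and in males alone 0.78 and 0.342. Within letter A the change was 0.70 and within letter B 0.54, and for miR-96-5p these were 2.09 and 1.31.

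The neighbouring miR-194-5p was at 149.9, 167.1, 211.7, 261.8 and 146.5 RPM in irradiated libraries and at 85.6 to 255.9 RPM (median 133.8) in sham libraries, with a log2 change of 0.52 ± 0.26 (SE, adjusted p 0.862). MiR-215-5p, which shares the seed of miR-192-5p, had a log2 change of 0.19 (adjusted p 0.956; -0.013 in edgeR and -0.028 with library size alone), and miR-34a-5p one of 0.06 ± 0.21 (SE, 95% interval -0.37 to 0.48). Of the 8 miRNAs listed as p53 and DNA damage responsive, 4 passed the filter on low counts, 0 rose or fell, and all 4 had intervals within the fold minimum. Their median log2 change was 0.35, beside 0.02 over all miRNAs tested. MiR-192-5p and a copy of miR-194-5p lie 199 bases apart, so 2 of these 4 values need not be independent. Both arms of miR-34b and miR-34c did not pass the filter.

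**Figure D2:**
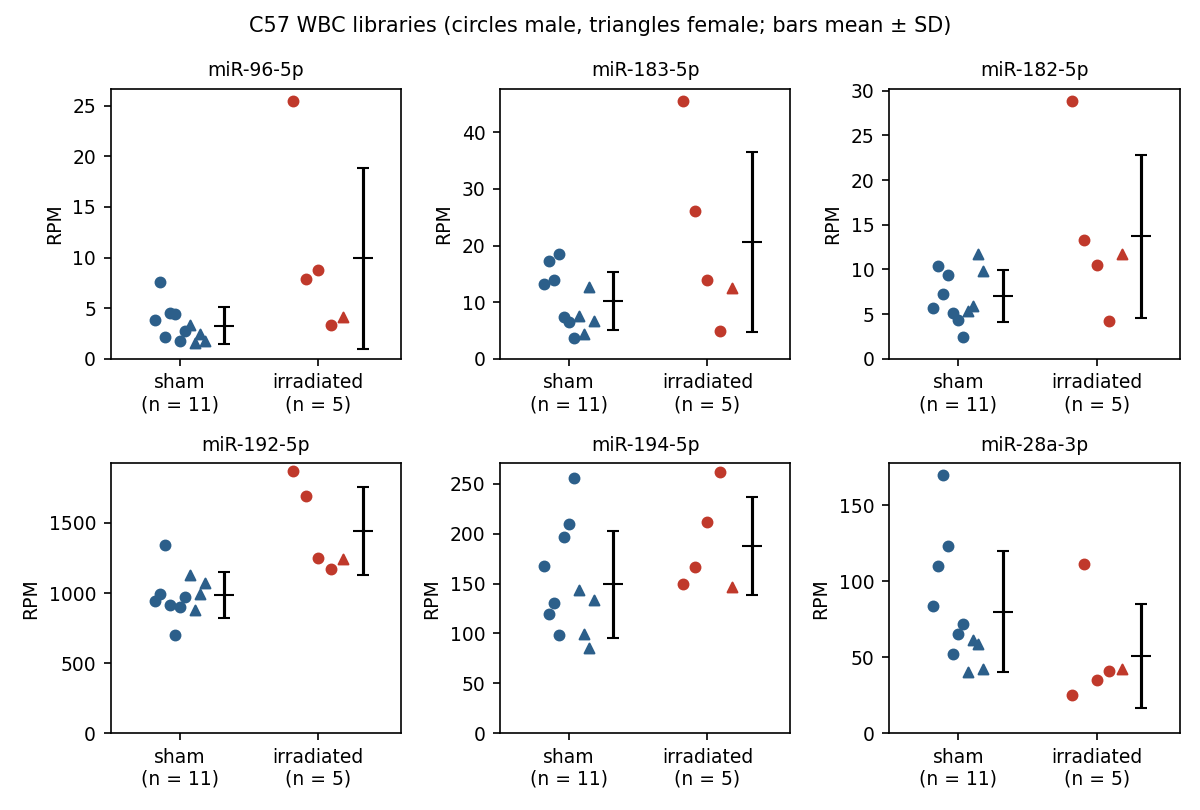
RPM of 6 miRNAs in each C57 WBC library, for 11 sham mice (blue) and 5 irradiated mice (red). Circles are males and triangles females, and bars give mean ± SD beside each group, with miR-192-5p at 700.6 to 1344 RPM in sham and 1169.5 to 1867 RPM in irradiated libraries, and every panel shows overlap.

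The other miRNAs among the 12 covered the whole range of abundance. MiR-142a-5p, present in all blood cell lineages, was at 23150, 17565, 15402, 21558 and 13024 RPM in irradiated libraries and at 7850 to 22857 RPM (median 14672) in sham libraries, with a log2 change of 0.42 ± 0.18 (SE, adjusted p 0.862). The opposite arm of the same hairpin, miR-142a-3p, had a log2 change of 0.01 ± 0.19, at 7553 ± 1374 RPM in sham libraries (SD, n = 11) and 7136 ± 1852 RPM in irradiated libraries (SD, n = 5). The groups overlapped for both arms.

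MiR-28a-3p, from an intron of Lpp, was at 25.4, 111.3, 34.7, 40.7 and 42.1 RPM in irradiated libraries and at 40.5 to 169.9 RPM (median 65.0) in sham libraries. Irradiated replicate 2 stood above the other 4, which lay below the sham median, and the log2 change was -0.69 ± 0.23 (SE, adjusted p 0.497). Its 5p arm had a log2 change of -0.12 (adjusted p 0.991). MiR-29b-3p, of the miR-29 family that targets collagen messenger RNAs, was at 1059, 1835, 1212, 1098 and 827.8 RPM in irradiated libraries and at 840.4 to 2345 RPM (median 1446) in sham libraries, a log2 change of -0.38 ± 0.18 (SE, adjusted p 0.862) that was -0.17 with TMM scaling and in edgeR and -0.22 in DESeq2. MiR-29a-3p and miR-29c-3p, which have its seed, had log2 changes of -0.23 and 0.37. Without irradiated replicate 2 these were -0.53 and 0.13, and without irradiated replicate 1 that of miR-29a-3p was -0.033.

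MiR-23b-3p had a log2 change of 0.52 ± 0.17 (SE, adjusted p 0.497) at 71.5 ± 36.2 RPM in sham (SD, n = 11) and 80.6 ± 38.4 RPM in irradiated libraries (SD, n = 5), and its change was 0.31 with TMM scaling and 0.22 with library size alone. The remaining 4 were miR-301a-3p (0.38 ± 0.17), miR-701-5p (0.66 ± 0.30), miR-190b-5p (0.71 ± 0.35) and miR-598-3p (-1.29 ± 0.56; SE on the log2 scale, adjusted p 0.862 each). Without irradiated replicate 1 the change of miR-301a-3p was 0.21. MiR-598-3p held 3 to 15 counts per sham library. By size alone, the largest rises were those of miR-96-5p, miR-183-5p and miR-3074-5p (0.94 ± 0.67), and the largest falls those of miR-598-3p, miR-205-5p (-1.03 ± 0.69) and miR-296-5p (-0.96 ± 0.60), and except for miR-183-5p all were below 10 RPM on average. Without 1 library the falls ran from -1.58 to -0.85 for miR-598-3p, -1.30 to -0.66 for miR-205-5p and -1.23 to -0.55 for miR-296-5p. The rise of miR-3074-5p ran from 0.65 to 1.25. MiR-205-5p lay at 0 to 1.94 RPM in sham males and at 2.02 to 9.66 RPM in sham females, and its change was -0.20 in males alone (sham median 0.722 RPM, irradiated 0.745 RPM).

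The leukocyte label was checked against the RBC fraction of the same 16 mice. MiR-150-5p, miR-342-3p, miR-181b-5p, miR-223-3p, miR-223-5p, miR-146a-5p and miR-155-5p were higher in WBC than in RBC in 16 of 16 mice. So were miRNAs listed for other tissues, namely miR-143-3p (mean log2 ratio 3.71), miR-1a-3p (3.14) and miR-9-5p (1.09), while miR-499-5p was in 6 of 16. A higher WBC level is therefore not particular to leukocyte miRNAs, and its share over all miRNAs was not counted. Of the lymphocyte list, miR-150-3p was higher in 0 and miR-342-5p in 2 of 16 mice, both near 0 RPM. MiR-181a-5p and miR-142a-3p were higher in WBC in 14 of 16 mice, and miR-142a-5p in 6 of 16, at 15870 ± 4521 RPM in WBC and 19336 ± 5622 RPM in RBC libraries (SD, n = 16). MiR-223-3p averaged 1352 RPM in WBC and 127.8 RPM in RBC libraries, and miR-150-5p 453.1 and 150.2 RPM. Erythroid miRNAs did not follow the labels in the same way. MiR-451a averaged 19481 ± 15607 RPM in WBC and 11318 ± 3633 RPM in RBC libraries (SD, n = 16) and was higher in WBC in 11 of 16 mice, whereas miR-144-3p was higher in WBC in 1 of 16. MiR-486a-5p was higher in WBC in 7 and miR-144-5p in 9 of 16 mice. The macrophage miRNA miR-511-5p had 0 counts in every C57 WBC library, as had the cardiac muscle miRNA miR-208a-3p, which allows up to 3 counts in a library.

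**Figure D3:**
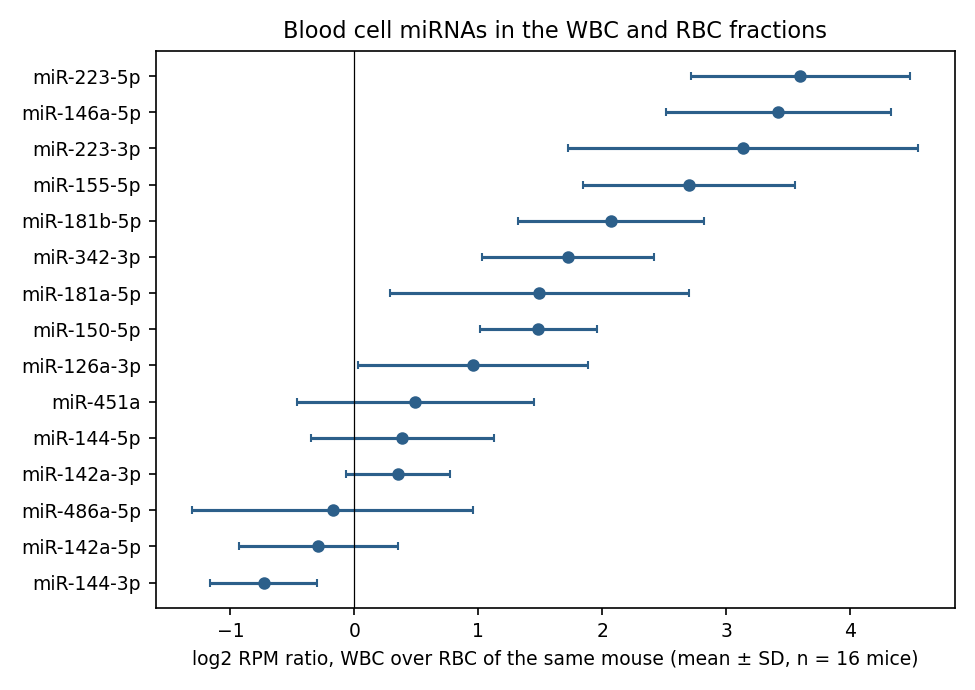
Mean log2 ratio of RPM (after adding 1) in the WBC over the RBC library of the same mouse for 15 blood cell miRNAs, with SD over 16 mice. The lymphocyte and myeloid miRNAs plotted lie to the right of 0, up to 3.60 for miR-223-5p, and miR-142a-5p (-0.29) lies to the left. Of the erythroid miRNAs, miR-451a (0.49) and miR-144-5p (0.39) lie to the right and miR-486a-5p (-0.18) and miR-144-3p (-0.73) to the left.

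Leukocyte miRNAs did not pass the test between irradiated and sham mice. In bulk fractions, fewer cells of a type and less of the miRNA per cell cannot be told apart. MiR-150-5p was at 218.2, 734.1, 271.6, 488.8 and 190.5 RPM in irradiated libraries and at 72.8 to 1369 RPM (median 470.1) in sham libraries, a log2 change of 0.10 ± 0.54 (SE, 95% interval -1.01 to 1.21). The interval reaches past the fold minimum, and the sign differed between tools, as -0.19 in edgeR and -0.25 in DESeq2. MiR-342-3p, from the Evl locus and enriched in lymphocytes, had a log2 change of 0.29 ± 0.38 (SE), with -0.0014 in edgeR and -0.050 in DESeq2, and miR-181b-5p one of -0.51 ± 0.29. Without 1 library that of miR-342-3p ran from 0.099 to 0.48. Of 6 lymphocyte miRNAs listed, 4 passed the filter, 0 rose or fell, and the median log2 change was 0.10.

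MiR-223-3p was at 1254, 2013, 923.4, 614.0 and 528.4 RPM in irradiated libraries and at 389.9 to 3860 RPM (median 1043) in sham libraries, with a log2 change of -0.48 ± 0.45 (SE, 95% interval -1.41 to 0.46, adjusted p 0.953). The change was -0.12 with TMM scaling, -0.21 with library size alone and -0.27 in edgeR. Its 5p arm had a log2 change of -0.23 ± 0.26, and the 2 arms of miR-511 did not pass the filter, so that 2 of 4 myeloid miRNAs were tested and 0 changed. Of the inflammation miRNAs 7 of 7 were tested and 0 changed, 1 above 0 and 6 below, with a median of -0.20 beside 0.02 over all tested. Among them were miR-155-5p (0.16), which is induced in activated lymphocytes and macrophages, miR-146a-5p (-0.20), a brake on NF-kB signalling, and miR-21a-5p (-0.37). Without irradiated replicate 1 that of miR-146a-5p was 0.22, and without irradiated replicate 4 it was -0.73.

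The erythroid list did not differ either. MiR-451a was at 8388, 8389, 14310, 46842 and 16772 RPM in irradiated libraries and at 5694 to 60075 RPM (median 14519) in sham libraries, a wide range within the sham group, and its log2 change was 0.06 ± 0.43 (SE, 95% interval -0.83 to 0.95). MiR-144-3p had a log2 change of 0.46 ± 0.24 (adjusted p 0.862) and miR-486a-5p one of -0.38 ± 0.42. Without 1 library that of miR-486a-5p ran from -0.56 to -0.089. The summed share of the 4 erythroid miRNAs was 2.32% to 10.7% (median 4.55%) in sham and 3.23% to 10.04% (median 4.24%) in irradiated libraries.

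Some leukocyte miRNAs separated sham males from sham females, 2 of 4 tested lymphocyte and 1 of 2 tested myeloid miRNAs on the normalised scale. In sham mice miR-150-5p was at 460.7 to 1369 RPM in the 7 males (median 671.5) and at 72.8 to 95.9 RPM in the 4 females (median 86.0), with no overlap. The same separation, males above females, was seen for miR-342-3p (53.2 to 234.0 RPM against 21.1 to 26.2 RPM), miR-155-5p (36.2 to 82.8 RPM against 11.9 to 21.05 RPM) and miR-223-3p (852.1 to 3860 RPM against 389.9 to 600.5 RPM). In RPM, but not on the normalised scale, all sham males were also above all sham females for miR-142a-5p (13935 to 22857 RPM against 7850 to 13262 RPM), miR-301a-3p, miR-29b-3p, miR-223-5p, miR-21a-3p, miR-335-5p and miR-34a-5p. In RPM this held for 52 of all 291 miRNAs (17.9%) and the reverse for 2 (0.687%), so the sexes differed in RPM over many miRNAs at once. The sexes overlapped for miR-181b-5p, miR-146a-5p and miR-142a-3p (6327 to 9146 RPM in sham males against 5194 to 9521 RPM in sham females). Over all 291 miRNAs every sham male library was above every sham female library for 17 (5.84%) and below for 14 (4.81%), on the normalised scale. MiR-192-5p and miR-205-5p were among those with males below females.

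Because 4 of 5 irradiated mice but 7 of 11 sham mice were male, the pooled comparison mixes sexes in unequal shares. The 4 irradiated males held miR-150-5p at 218.2 to 734.1 RPM (median 380.2), below the sham male median but overlapping the sham males, and the irradiated female held 190.5 RPM, above all 4 sham females. In males alone the log2 change of miR-150-5p was -0.72 (adjusted p 0.669 in limma) and that of miR-223-3p -0.87 (adjusted p 0.669), and with sex as a covariate they were -0.27 and -0.68 (adjusted p 0.855 and 0.620). A change within females could not be tested with 1 irradiated female. With sex as a covariate 25 miRNAs had an unadjusted p under 0.05 (13 higher, 12 lower) and in males alone 19, and 0 were called in either.

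**Figure D4:**
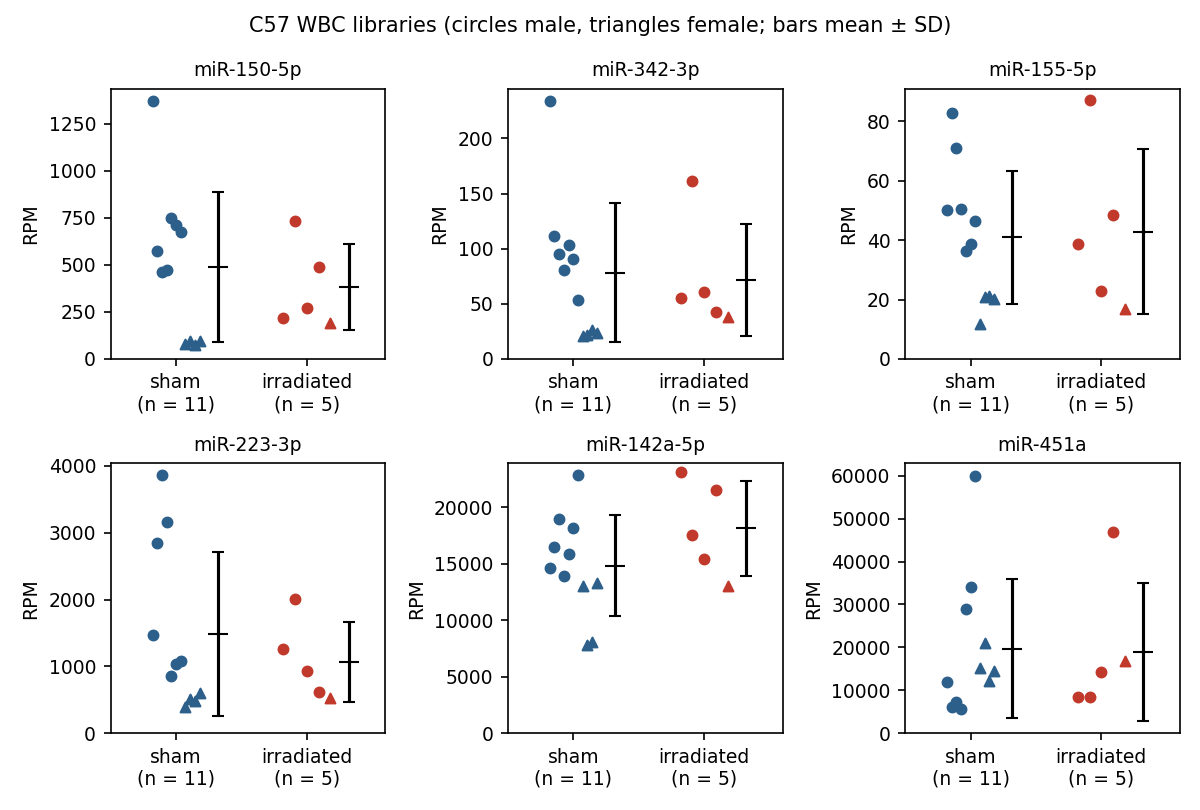
RPM of lymphocyte (miR-150-5p, miR-342-3p), inflammation (miR-155-5p), myeloid (miR-223-3p), pan-leukocyte (miR-142a-5p) and erythroid (miR-451a) miRNAs in each C57 WBC library, sham in blue (n = 11) and irradiated in red (n = 5), with mean ± SD. Sham females (triangles) lie below sham males (circles) for miR-150-5p, at 72.8 to 95.9 RPM against 460.7 to 1369 RPM, and the groups by irradiation overlap in every panel.

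Of the other lists none held a miRNA that passed the test. All 13 miRNAs of the proliferation-linked miR-17-92 and paralogous clusters were tested, 10 above and 3 below 0, with a median log2 change of 0.17 and 12 intervals within the fold minimum. The let-7 family (9 of 9 tested) had a median of 0.09 and the miR-15/16 family (6 of 6) one of 0.11. Both arms of miR-126a, found in endothelium and platelets, had log2 changes of 0.23 and 0.28, and without irradiated replicate 1 that of the 3p arm was -0.12. MiRNAs of other tissues were scarce in both groups. Of the 4 cardiac muscle miRNAs 2 were tested, with a summed share of the 4 of 0.00131% to 0.00383% in sham and 0.00123% to 0.00799% in irradiated libraries, and of the 6 lung epithelium miRNAs 4 were tested, with a summed share of 0.0249% to 0.0483% in sham and 0.0275% to 0.0518% in irradiated libraries. For mesenchyme 2 of 5, for brain 1 of 2 and for liver 1 of 1 were tested, and 0 changed.

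WBC of C3H mice, taken in month 4 from females, were compared with the C57 values in the same fit. C3H WBC had 20 miRNAs with an unadjusted p under 0.05 (6.87%), 3 of them also among the C57 12, and these were miR-28a-3p (-0.69 in C57 and -0.70 in C3H), miR-598-3p (-1.29 and -1.14) and miR-190b-5p (0.71 and 0.82). MiR-96-5p, miR-183-5p and miR-182-5p had log2 changes of 0.91, 0.64 and 0.57 in C3H, and miR-192-5p one of 0.28. The difference between strains was called for 0 miRNAs, with 5 at an unadjusted p under 0.05 (1.72%). Over the 291 miRNAs, changes in C57 and C3H correlated with r = 0.52 (Pearson) and rho = 0.52 (Spearman), which describes miRNAs that are not independent and were normalised together. Strain, sex and time after WTLI cannot be told apart here.

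WBC were set against lung, the irradiated organ. In a joint fit with the C57 lung libraries (5 irradiated, 15 sham), the change in lung minus the change in WBC was called for 9 of 389 miRNAs (2.31%), namely miR-7b-5p, miR-196b-5p, miR-208b-3p, both arms of miR-335, miR-21a-3p, miR-411-5p, miR-376a-3p and miR-376b-3p. Of these, 5 (miR-7b-5p, miR-208b-3p, miR-411-5p, miR-376a-3p and miR-376b-3p) were too low in WBC to pass the filter there, with 0 to 7 counts at most in any C57 WBC library, and entered the fit through lung, so they say nothing of how WBC responded. MiR-7b-5p, which shares its seed with miR-7a-5p, averaged 23.1 RPM in sham and 794.9 RPM in irradiated lung, but 0.701 ± 0.487 RPM in sham WBC (SD, n = 11) and 1.43 ± 0.683 RPM in irradiated WBC (SD, n = 5), with at most 7 counts in any WBC library. Its log2 change in lung was 5.06. MiR-7a-5p was abundant in WBC, at 766.5 ± 228.5 RPM in sham (SD, n = 11) and 1143 ± 398.5 RPM in irradiated libraries (SD, n = 5), and its changes of 0.58 in lung and 0.63 in WBC differed by -0.05 ± 0.42 (SE, adjusted p 0.986).

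The other 4 passed the filter in WBC. MiR-196b-5p, which overlaps an exon of Hoxa9 in the annotation, was higher in WBC than in lung. It averaged 30.6 RPM in sham and 36.6 RPM in irradiated WBC, but 0.148 and 4.404 RPM in sham and irradiated lung, and the changes differed by 2.93 ± 0.47 (SE, adjusted p 6.05e-05). Sham lung libraries held at most 2 counts of it, so the size of this difference rests on counts near 0. MiR-21a-3p, the passenger arm of the injury-associated miR-21a, averaged 26.1 and 19.6 RPM in sham and irradiated WBC and 28.6 and 82.6 RPM in lung, with a difference of changes of 1.80 ± 0.46 (SE, adjusted p 0.0280), which edgeR did not call (adjusted p 0.128). MiR-335-5p, from an intron of the imprinted gene Mest, averaged 2.09 and 1.10 RPM in WBC and 86.1 and 222.1 RPM in lung, with a difference of 1.86 ± 0.48 (adjusted p 0.0282), and miR-335-3p had a difference of 1.86 ± 0.46 (adjusted p 0.0267). WBC libraries held at most 15 counts of miR-335-5p in sham and 7 in irradiated mice, so its WBC change rests on few counts. In mice with both libraries the adjusted p was 0.0622 for both arms of miR-335 and for miR-21a-3p, and 0.000287 for miR-196b-5p. Leaving out 1 WBC library raised it to 0.0532 and 0.0818 for miR-335-3p (irradiated replicates 4 and 5), to 0.0749, 0.0674 and 0.0818 for miR-335-5p (irradiated replicates 1, 4 and 5), and to 0.0532 and 0.0543 for miR-21a-3p (irradiated replicates 4 and 5). MiR-208b-3p, a cardiac muscle miRNA, had 0 counts in every WBC library, and in lung it averaged 7.12 RPM in sham and 1.93 RPM in irradiated libraries.

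Below the fold minimum, miR-34a-5p and miR-192-5p also differed between the tissues. MiR-34a-5p averaged 626.3 and 1428 RPM in sham and irradiated lung and 40.8 and 38.3 RPM in WBC, with log2 changes of 1.05 and 0.07 and a difference of 0.98 ± 0.28 (SE, adjusted p 0.0450). This p was 0.138 in edgeR, and it rose above 0.05 without any 1 of 9 of the 16 WBC libraries (irradiated replicates 2, 3 and 5 and sham replicates 2, 6, 8, 9, 10 and 11), the highest being 0.124 without irradiated replicate 2. MiR-192-5p had log2 changes of -0.41 in lung and 0.58 in WBC, a difference of -0.99 ± 0.26 (adjusted p 0.0283, 0.0178 in edgeR, 0.0622 in mice with both libraries, and 0.0749, 0.0528 and 0.0818 without irradiated replicates 1, 2 and 5 of WBC). Of the 9 miRNAs that the study named for lung in both strains, 6 passed the filter in WBC and 0 changed, with a median log2 change of -0.34. That list was chosen on lung libraries of these mice and is no independent evidence on lung. Of 23 circulating miRNAs named in the study's text, 13 were tested and 0 changed, 9 above and 4 below 0, beside 151 above and 139 below over all 291. MiR-96-5p and miR-142a-5p are the 2 with an unadjusted p under 0.05, beside 12 of 291 (4.12%).

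**Figure D5:**
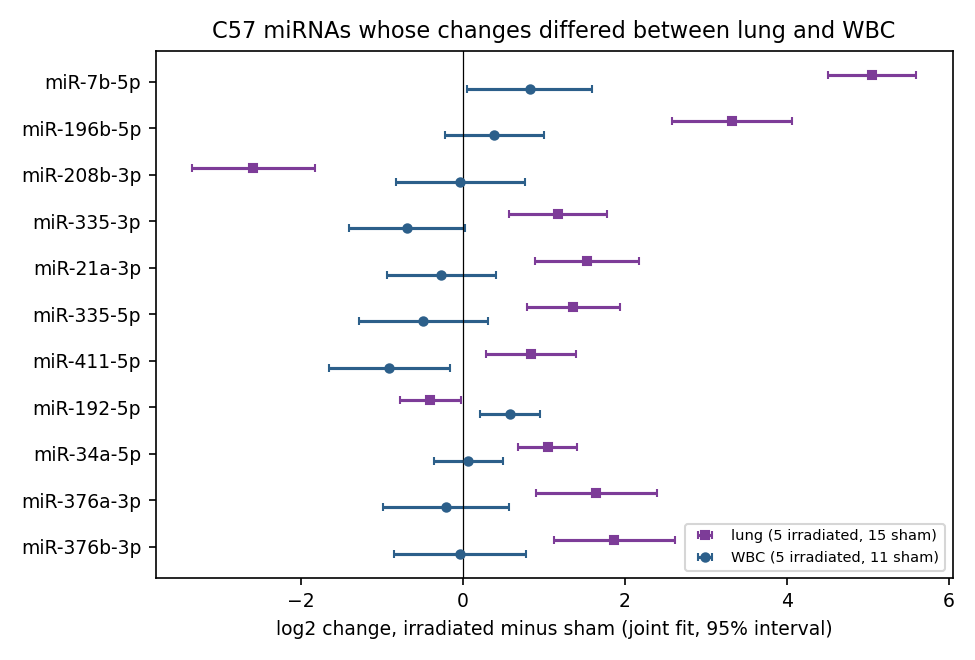
Log2 change, irradiated minus sham, with 95% intervals from the joint fit, for the 11 miRNAs whose change differed between lung and WBC at an adjusted p under 0.05. Squares are lung (5 irradiated, 15 sham) and circles WBC (5 irradiated, 11 sham), and the WBC values of miR-7b-5p, miR-208b-3p, miR-411-5p, miR-376a-3p and miR-376b-3p rest on 7 counts or fewer per library, while miR-192-5p lies below 0 in lung and above 0 in WBC.

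In the RBC fraction of C57 mice the change minus the change in WBC was called for 0 of 287 miRNAs (0%). MiR-96-5p, miR-183-5p and miR-182-5p had log2 changes of 0.74, 1.12 and 1.21 in RBC and of 1.67, 0.94 and 0.91 in WBC in this fit, and none of the 3 differences passed (adjusted p 1 each in limma). MiR-142a-5p had changes of -0.03 in RBC and 0.42 in WBC, and miR-192-5p 0.30 and 0.62. The differences of the cluster members had intervals of -2.15 to 0.30 for miR-96-5p, -0.98 to 1.33 for miR-183-5p and -1.09 to 1.70 for miR-182-5p, so a difference of the called size lay inside each of them.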

How the data were processed

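The authors prepared small RNA libraries from 1 extract per mouse and fraction, trimmed the reads, aligned them to mouse miRNAs (mm10 in the submitters' processing notes) and dropped runs short of miRNA reads. The tables they deposited hold raw read counts of 1915 mature miRNAs, 1 table for each of 5 tissues, not normalized by the authors. Use of molecular identifiers and the assignment of reads that fit several miRNAs are not given in the sources used here, so counts cover counting error only.

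Groups came from the sample labels. The members follow from the labels, but they and the lists of miRNAs were chosen for this comparison with earlier results of these data known. Counts of 27 WBC libraries (4 groups, strain by irradiation) were filtered with filterByExpr (edgeR 4.0.16, count minimum 10, total minimum 15), transformed to log2 RPM by voom with quantile normalisation, and tested with limma 3.58.1 (R 4.3.3, two-sided, Benjamini-Hochberg adjustment). A miRNA was called at an adjusted p under 0.05 and 2.25-fold (1.17 on the log2 scale). WBC were set against lung and RBC in joint fits of C57 libraries, and single values were compared by exact permutation over 4368 splits. P-values measure the spread between mice. The scripts were tested on simulated data. Named miRNAs are the 10 most abundant, the 12 of lowest p, the 3 largest rises and falls, up to 4 members of each list in list order with the one of largest change, and the 5 lowest adjusted p of the lung comparison. MiR-194-5p, miR-7a-5p, cluster and seed partners, the other miRNAs called against lung, and the values by sex were added after values were seen. The log2 change was recomputed under the alternatives for 39 miRNAs, including each whose change in the fit of WBC alone is printed. The most abundant are otherwise given by share and the lists by counts and medians, which were not recomputed. All pairs of libraries within a group differed by more than sampling noise (smallest chi-square per degree of freedom 83.2 over 65 pairs), and 0 columns lacked a sample. The pairs are different mice at high total counts, so this outcome was set beforehand and tests nothing of the comparison. Total counts of 2354921 to 5060541 put 1 count at well under 1 RPM.

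Alternatives were edgeR, DESeq2 1.42.0, TMM or library size scaling, looser and stricter filters, sex or letter as a covariate, C57 libraries, males or 1 letter alone, the animal as a block, and leaving out each library. The labels tie tissues to animals, so mice pair the joint fits. Deviations of the same mouse correlated at -0.16 to 0.37 between WBC and lung and at -0.10 to 0.39 between WBC and RBC.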

Additional observations from a re-analysis of the deposited data

Results flagged for a closer look

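MiR-301a-3p in irradiated replicate 1 was at 8.83 normalised log2 RPM, apart from the other 4 irradiated libraries (7.85 to 8.09), and without it the log2 change was 0.21 in place of 0.38. MiR-29c-3p in irradiated replicate 2 was at 9.56, apart from the other 4 (8.21 to 8.57), and without it the change was 0.13 in place of 0.37. Chance sets apart about 1 in 20 groups of this size, and 39 miRNAs were looked at.

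The change in lung minus the change in WBC of C57 mice differed from 0 at an adjusted p under 0.05 (limma) for 8 of the miRNAs named for this comparison. The differences were 4.24 for miR-7b-5p, 2.93 for miR-196b-5p, -2.56 for miR-208b-3p, 1.86 for miR-335-3p, 1.86 for miR-335-5p, 1.80 for miR-21a-3p, 0.98 for miR-34a-5p and -0.99 for miR-192-5p on the log2 scale. In WBC, miR-208b-3p had 0 counts and miR-7b-5p at most 7 in any library, so these 2 differences rest on lung and say nothing of WBC. MiR-196b-5p had at most 2 counts in any sham lung library, and miR-335-5p at most 15 in any WBC library. The miRNAs named for this comparison include by rule the 5 of lowest adjusted p in this same test. They also include the study's lung list, which was chosen on these lung libraries. The count of 8 was therefore largely set by that choice and is no separate evidence. Over all 389 miRNAs of the joint fit, 9 (2.31%) were called with the fold minimum.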

How the results depend on the processing

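In WBC, 0 miRNAs were called in 27 of 28 alternatives, whose lowest adjusted p ran from 0.0584 (miR-96-5p, DESeq2) to 0.988, and 0 for the strain difference in all 24. The exception, a filter of 1 count in any library, tested 883 miRNAs and called 5, with 7 at an adjusted p under 0.05, 72 at an unadjusted p under 0.05 and 556 intervals within the fold minimum. The 5 (miR-188-5p, miR-3061-5p, miR-501-5p, miR-6911-5p and miR-6976-5p) held at most 4 counts in any C57 library. The 12 miRNAs at an unadjusted p under 0.05 became 6 with library size alone, 7 with 10 counts in every library, 25 with sex as a covariate, 19 in males alone and 8 to 21 without 1 library, with 21 reached without irradiated replicate 2. Intervals within the fold minimum numbered 71 in letter A alone (7 libraries) and 149 to 190 without 1 library.

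The log2 changes of 39 miRNAs kept their sign in 1025 of 1079 recomputed values. The other 54 belonged to 11 miRNAs with main changes of -0.23 to 0.29. MiR-150-5p was at -0.19 in edgeR, -0.25 in DESeq2, -0.27 with sex as a covariate, -0.72 in males, -0.076 in letter B and -0.10 to 0.31 without 1 library. MiR-142a-3p was at -0.0079 in edgeR, -0.039 in DESeq2, -0.088 with library size alone, -0.014 with sex as a covariate, -0.011 in males, -0.030 in letter B and -0.058 to 0.062 without 1 library. MiR-342-3p was at -0.0014 in edgeR, -0.050 in DESeq2 and -0.093 in males. MiR-451a was at -0.0017 in DESeq2, -0.022 with library size alone, -0.35 in letter A and -0.26 to 0.31 without 1 library. MiR-34a-5p was at -0.022 in DESeq2, -0.0029 with TMM, -0.097 with library size alone, -0.012 with the strict filter and -0.094 to 0.19 without 1 library. MiR-215-5p was at -0.013 in edgeR, -0.060 in DESeq2, -0.028 with library size alone, -0.028 in letter B and -0.053 to 0.60 without 1 library. MiR-28a-5p was at 0.61 in letter A and -0.33 to 0.10 without 1 library, and miR-29a-3p at 0.071 in letter A. MiR-155-5p was at -0.052 in letter B and -0.00035 to 0.34 without 1 library, miR-126a-3p at -0.061 in letter B and -0.12 to 0.52 without 1 library, and miR-146a-5p at -0.73 to 0.22 without 1 library. The cause was not tested.

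The difference in log2 total counts was -0.00098 in males, -0.14 in letter B and -0.053 to 0.060 without 1 library, and that in detected miRNAs 11 in letter A and -16 to 1 without 1 library. The 9 miRNAs called for lung minus WBC became 4 in edgeR (miR-7b-5p, miR-196b-5p and both arms of miR-335, without miR-21a-3p and miR-208b-3p), 0 with 10 counts in every library (which leaves few miRNAs of low level in 1 tissue), 3 in mice with both libraries, and 3 to 10 without 1 WBC library, with 5 without irradiated replicate 1 and 3 without irradiated replicate 4 or 5. With the animal as a replicate block the counts were 9 for lung and 0 for RBC, so the pairing changed neither count. Below 10 RPM 49 of 114 miRNAs had an interval within the fold minimum, and the parts of depth and of the spread between mice in this were not tested.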
